A study of Mus musculus with 7 samples.

Results

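Translation initiation and elongation factors bring the mRNA, the initiator tRNA and the ribosomal subunits together at a start codon and then move the ribosome along the message. They were taken here as every mouse gene whose symbol begins with Eif1 to Eif6 or with Eef1 or Eef2, measured by its brightest probe set among those annotated to exactly 1 gene. This gave 57 of the 13287 named genes of the table, on 66 probe sets, of which 56 passed a filter on mean signal and were tested among 9944 genes. The gene below the filter was Eif4a3l1, a copy of Eif4a3, with a mean log2 level of 4.50. The rule also fits 14 other protein-coding genes of the RefSeq table that were not analysed here, among them Eef1a1, Eef1g, Eif1, Eif2s1, Eif4g1, Eif4ebp2 and Eif5a2. Of these, Eif3j1, Eif3j2 and Eif4ebp3 had only probe sets shared with other genes.

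Satellite cells, the muscle stem cells that lie between the myofibre and its basal lamina, were sorted by FACS from Tg:Pax7-nGFP mice, in which a nuclear GFP reports expression of Pax7. Their RNA was hybridised to 7 arrays, 3 from muscle taken 4 days post mortem (D4PM), 2 from muscle taken 2 days post mortem (D2PM) and 2 from old mice. All mice carried the Pax7-nGFP transgene, and no other treatment or allele was given in the labels. The old mice were 24 to 26 months old in the array labels and in the methods, whereas the design text of the series gives 24 to 26 weeks and its title speaks of young adults. For the mice used post mortem, a figure legend gives an age of 8 to 12 weeks, so that age and time after death cannot be told apart in a comparison with old cells. Values were log2 levels made with RMA, which carry no detection call, and array medians lay between 6.11 and 6.19. No level is compared between genes, because probes differ in brightness.

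Quiescent satellite cells are known for a low rate of protein synthesis, in which phosphorylation of the alpha subunit of eIF2 plays a part. In initiation, eIF2 carries the initiator tRNA to the small ribosomal subunit, and eIF1A helps that subunit to scan for the start codon. The scaffold eIF3 links the mRNA to the small subunit, and the eIF4 factors bring the capped mRNA. In elongation, eEF1A delivers aminoacyl tRNA and eEF2 moves the ribosome to the next codon. The control of these proteins is largely by phosphorylation, which an RNA array does not measure.

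Cells taken after death carried lower levels than old cells for a group of initiation factors, led by Eif3b, Eif5a, Eif4e and Eif4a1, and higher levels for a few, among them Eef1a2 and Eif4a2. The comparison was the mean of D2PM and D4PM, each day with equal weight, minus old (limma, adjusted p under 0.05 over all genes tested). Of the 56 factors, 19 were lower, 5 were higher and 32 were not called, against 29.0% of all genes tested that were called in either direction, 14.7% lower and 14.4% higher. That is 33.9% of the factors on the lower side. The median log2 difference was -0.18 over the factors and 0.00 over all genes tested, and 36 of the 56 factors lay below 0, against 49.7% of all genes. Without old replicate 2 the median over the factors was -0.087. Post-mortem and old arrays did not overlap in 33 of the 56 factors, where 46.0% of all genes did so, and every post-mortem array was below both old arrays in 23.2% of all genes. In all 19 factors called lower, every post-mortem array lay below both old arrays, and in all 5 called higher, every post-mortem array lay above them. The calls were made on these same arrays, so this separation gives them no further support.

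The deposited table had been filtered for genes that vary, and the share called depends on brightness. Among genes with a mean log2 level of 7 to 14, 39.4% were called and 21.5% were called lower. The 42 factors in that range had 17 lower and 3 higher, and the 14 dimmer factors had 2 lower and 2 higher, against 19.3% of dimmer genes called. The calls rest on few arrays. Without old replicate 2, 4 factors were called, namely Eif3b, Eif4a1, Eif4e and Eif5a, and 8.63% of all genes were. Without D2PM replicate 1 there were 13, where 18.8% of all genes were called, and without old replicate 1 there were 15, where 21.4% were.

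**Figure D1:**
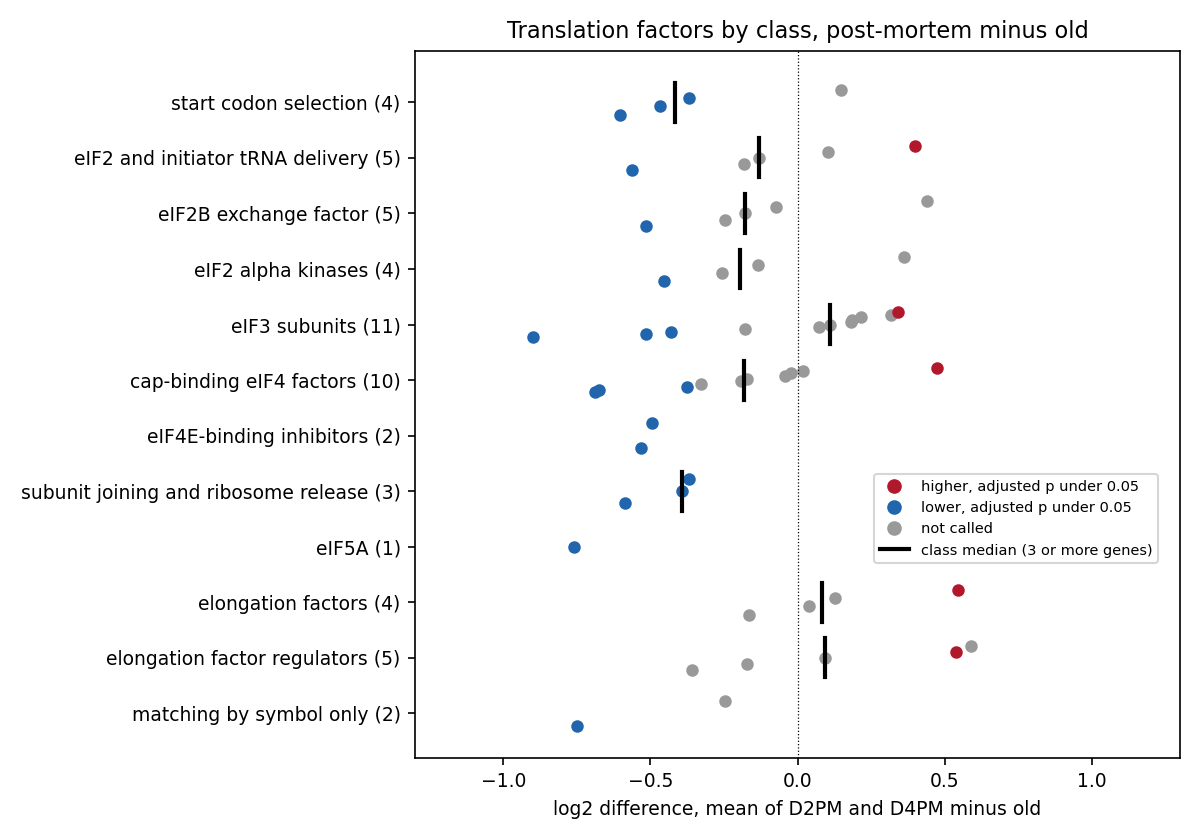
The log2 difference between post-mortem cells (mean of D2PM and D4PM) and old cells on the horizontal axis for each of the 56 factors tested, by class, with the number of genes in brackets. Blue and red points passed adjusted p under 0.05, grey points did not, and black lines are medians of classes of 3 or more genes. The blue points fall mostly in the start codon, eIF3, eIF4, inhibitor and joining classes, and the elongation classes hold 2 red points and no blue one.

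Satellite cell markers were present in all groups. The mean of 8 such markers on an array was 9.75 to 10.01 in D4PM cells, 9.87 to 9.90 in D2PM cells and 9.74 to 9.91 in old cells, with Pax7 itself at 9.87 or more throughout. Within this list Vcam1 was lower post mortem (-0.73, limma adjusted p = 0.00201), Calcr and Cd34 were higher (0.55 and 0.67, limma adjusted p = 0.0114 and 0.0376), and the other 5 were not called, although Itga7 was lower at D4PM (-0.44, limma adjusted p = 0.0215). Markers of other cells also moved with the comparison. The mean of 6 myofibre markers was 8.20 to 8.52 in D4PM cells, 8.22 to 8.44 in D2PM cells and 7.01 to 7.35 in old cells, and that of 8 endothelial markers was 6.94 to 7.59, 6.96 to 6.99 and 5.80 to 6.56 in the same groups. Macrophage markers overlapped, with means of 5.25 to 5.74 in D4PM cells, 5.31 to 5.77 in D2PM cells and 5.34 to 5.92 in old cells, and Ptprc, the pan-leukocyte marker, was at 4.34 or less on all arrays. Of the lymphocyte markers, Cd22 was the only one tested, and it was lower in the mean of both days (-0.56, limma adjusted p = 0.011). It was lower at D2PM (-1.01, limma adjusted p = 0.00229) and not called at D4PM (-0.10, limma adjusted p = 0.647). D4PM cells had more of it than D2PM cells (0.92, limma adjusted p = 0.0419). Fibroadipogenic markers lay at 7.45 to 8.05, 8.17 to 8.25 and 7.22 to 7.87 in D4PM, D2PM and old cells. The part of RNA from other cells, and of the change among satellite cell markers, in the differences below was not tested. In these sorted pools, fewer cells of a type and less RNA per cell cannot be told apart.

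Among the factors grouped under start codon selection, 3 of 4 were lower post mortem, with a class median of -0.42. Eif1ad was placed in this class by its likeness to eIF1A, and its part in start codon selection was not examined. Eif1a, which encodes eIF1A, a factor that helps the small subunit to scan for the start codon, had log2 levels of 9.01, 9.10 and 9.39 in D4PM cells and 9.56 and 9.36 in D2PM cells, against 9.88 and 9.95 in old cells. The post-mortem arrays all lay below the old ones, by -0.60 ± 0.13 (SE; limma, adjusted p = 0.00607). Probe sets that Eif1a shares with other genes gave smaller differences, from -0.35 to -0.19, and were not tested. On some of these, D2PM replicate 1 reached or passed old replicate 2. Eif1ax, the X-linked paralogue of Eif1a, was lower by -0.37 (limma, adjusted p = 0.0284). Eif1ad, a protein with an eIF1A-like domain, had 7.34, 7.46 and 7.08 in D4PM cells and 7.77 and 7.68 in D2PM cells, against 7.90 and 8.04 in old cells (-0.47 ± 0.13, limma adjusted p = 0.0201). Eif1b, a paralogue of the start codon factor eIF1, had 8.39, 8.60 and 8.64 in D4PM cells and 8.85 and 8.60 in D2PM cells, against 8.66 and 8.30 in old cells. Its groups overlapped (0.15 ± 0.14, limma adjusted p = 0.443).

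Of the 5 genes of eIF2 and the other carriers of initiator tRNA, 1 was lower, 1 was higher and 3 were not called. Eif2s3y, the Y-linked gene for the gamma subunit of eIF2, had 7.75, 7.75 and 7.88 in D4PM cells and 7.88 and 7.63 in D2PM cells, against 8.24 and 8.43 in old cells. This was a difference of -0.56 ± 0.12 (limma, adjusted p = 0.00574), with no overlap. Its X-linked paralogue Eif2s3x had 9.44, 9.63 and 9.68 in D4PM cells and 9.79 and 9.69 in D2PM cells, against 9.74 and 9.85 in old cells. Here the D2PM and old arrays overlapped (-0.13 ± 0.12, limma adjusted p = 0.428), and the difference between the paralogues was not tested. The Y-linked genes Kdm5d and Uty also had differences below 0, neither of them called (-0.22 and -0.26, limma adjusted p = 0.212 and 0.177). Xist, below the filter and not tested, had 3.68 to 3.79 on the post-mortem arrays and 4.12 and 4.14 in old cells. Eif2a, a tRNA carrier that is not a subunit of eIF2, was higher post mortem, with 9.64, 9.65 and 9.70 in D4PM cells and 9.80 and 9.75 in D2PM cells, against 9.32 and 9.31 in old cells (0.40 ± 0.11, limma adjusted p = 0.0169). The beta subunit gene Eif2s2 and the tRNA carrier gene Eif2d were not called.

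The start regions of the eIF2 gamma paralogues are shown because these genes encode nearly the same protein from the X and the Y chromosome. Sequences are from RefSeq (GRCm38.p6), which held a window from 250 bases before to 50 after the start for 45 of the 57 factors. Capitals mark the run of 8 or more C or T found within 15 bases before to 30 after the start, on the strand of the gene. Such runs at the very start of the transcript are a known feature of mRNAs of the translation machinery whose use depends on mTOR.
Eif2s3x (chrX:94212634-94212663, minus strand): ccgagcaTTTTCCTTTTCTCTCCgagcaag
Eif2s3y (chrY:1010587-1010616, plus strand): ccacagccaCTTCCTTCTTTCgtgagcaag
A run anywhere within 15 bases before to 30 after the start was counted, not only one at the very start. Relative to the annotated start, its first base lay at -5 in Eif2s3x and at 1 in Eif2s3y. Among the factors it lay from -15 in Eif2b5 to 15 in Eef1a2. The counts are therefore not shares of genes with a run at the very start. A counted run was held by 13 of the 45 factors (28.9%), these 2 genes included. The share was 19.0% of 27025 genes with a window and 19.4% of the 7862 of these that were tested. Among the factors, 4 of the 14 called lower with a window held a counted run, 2 of the 4 called higher and 7 of the 26 not called.

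Of the 5 subunits of eIF2B, the exchange factor that reloads eIF2 with GTP, 1 was lower and none was higher, with a class median of -0.18 that was -0.061 without old replicate 2 and -0.30 without old replicate 1. Eif2b3 had 6.78, 6.97 and 6.55 in D4PM cells and 6.97 and 6.84 in D2PM cells, against 7.09 and 7.61 in old cells (-0.51 ± 0.16, limma adjusted p = 0.033). The old arrays differed here by more than the gap between the groups, and without old replicate 2 the difference was -0.25 (adjusted p = 0.402), without old replicate 1 -0.78. Eif2b2 had the opposite sign without passing the test, with 7.41, 7.93 and 7.45 in D4PM cells and 7.88 and 7.74 in D2PM cells, against 7.15 and 7.38 in old cells (0.44 ± 0.16, limma adjusted p = 0.0529).

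The 4 kinases of eIF2 alpha, each of which answers to a different stress, had 1 call. Eif2ak4, which encodes GCN2, the sensor of amino acid shortage, had 5.97, 5.69 and 5.64 in D4PM cells and 5.96 and 5.96 in D2PM cells, against 6.36 and 6.28 in old cells. All post-mortem arrays were lower, by -0.46 ± 0.12 (limma, adjusted p = 0.0181). Eif2ak3, the gene of PERK, the sensor of unfolded protein in the endoplasmic reticulum, had 6.60, 6.38 and 6.38 in D4PM cells and 6.36 and 6.72 in D2PM cells, against 6.07 and 6.19 in old cells. The post-mortem arrays all lay above the old ones, but the difference did not pass (0.36 ± 0.13, limma adjusted p = 0.0637). The haem-regulated kinase gene Eif2ak1 had 6.997, 7.23 and 7.07 in D4PM cells and 7.23 and 7.37 in D2PM cells, against 7.23 and 7.43 in old cells, with overlap. The gene of PKR, the kinase that binds double-stranded RNA, Eif2ak2, had 5.69, 5.69 and 5.52 in D4PM cells and 5.76 and 5.58 in D2PM cells, against 5.82 and 5.99 in old cells (-0.26 ± 0.12, limma adjusted p = 0.133).

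The 11 measured subunits of eIF3, the large scaffold that links the mRNA to the small ribosomal subunit, differed among themselves. Eif3a, Eif3b and Eif3c, which encode 3 of the largest subunits, were lower post mortem, Eif3h was higher, and 7 were not called. Eif3b showed the largest difference of all factors, with 8.21, 8.16 and 8.15 in D4PM cells and 8.51 and 8.64 in D2PM cells, against 9.21 and 9.33 in old cells. The groups stood in 3 separate bands, and the post-mortem mean was -0.90 ± 0.11 from old (limma, adjusted p = 0.000262), or 0.537 times the old level. Eif3a had 10.24, 10.18 and 9.97 in D4PM cells and 10.16 and 10.24 in D2PM cells, against 10.57 and 10.80 in old cells (-0.52 ± 0.13, limma adjusted p = 0.01). Eif3c had 9.75, 9.68 and 9.60 in D4PM cells and 9.79 and 9.82 in D2PM cells, against 10.08 and 10.26 in old cells (-0.43 ± 0.11, limma adjusted p = 0.0158).

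The other eIF3 subunits among these 11 had differences above 0, with the exception of Eif3d. Eif3j1 and Eif3j2 are not among them, because their probe sets are shared. Those probe sets had differences of -0.69 and -0.61, with all post-mortem arrays below the old ones, and were not tested. Eif3h had 11.38, 11.28 and 11.51 in D4PM cells and 11.43 and 11.35 in D2PM cells, against 11.06 and 11.03 in old cells. This passed narrowly (0.34 ± 0.11, limma adjusted p = 0.0445), was called on neither day alone, and did not pass under 10 of 15 alternatives, including both other scalings. Eif3e, Eif3f, Eif3i, Eif3k, Eif3l and Eif3m had differences of 0.07 to 0.32, none of them called, and Eif3d had -0.18 (limma, adjusted p = 0.332). The class median was 0.11, over genes with differences below 0 and genes with differences above it, and 0.058 without old replicate 2.

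**Figure D2:**
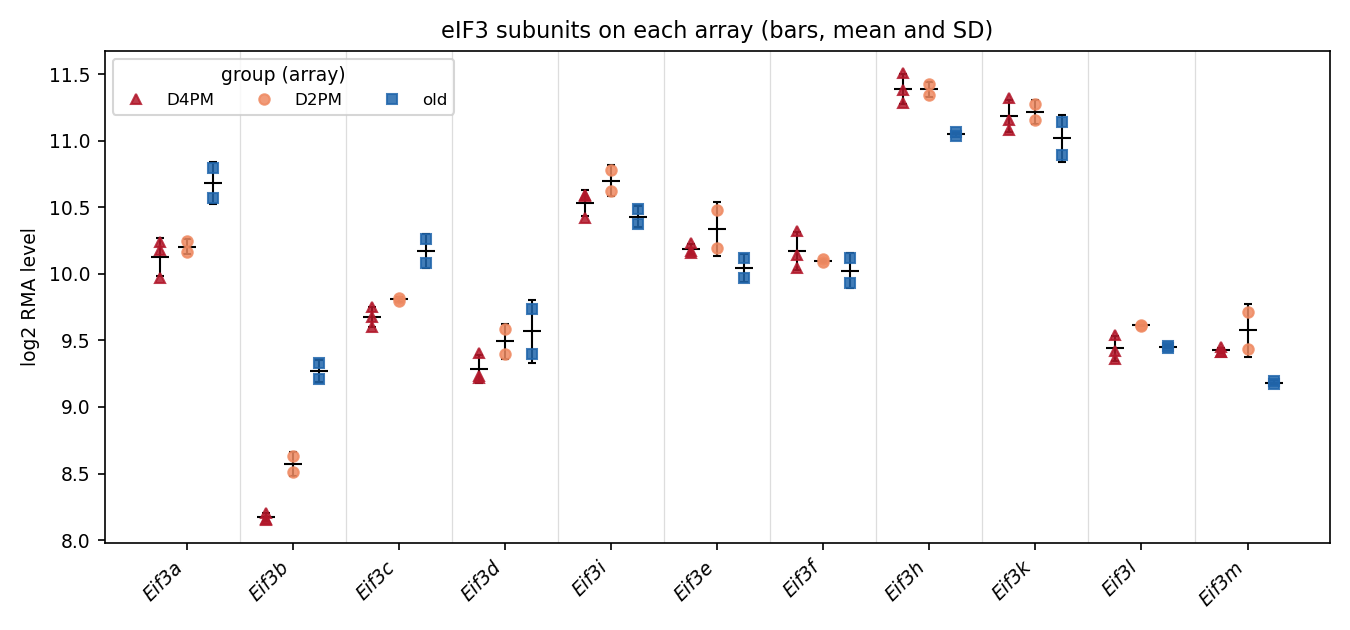
The log2 RMA level (vertical axis) of 11 eIF3 subunits on each array, with D4PM (triangles), D2PM (circles) and old (squares) side by side and bars for mean and SD; levels can be set against each other within a gene only. Eif3a, Eif3b and Eif3c have all post-mortem arrays below the old ones, and Eif3e, Eif3h and Eif3m have them above.

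Among the eIF4 factors, which bind the cap and unwind the leader of the mRNA, 3 of 10 were lower, 1 was higher and the class median was -0.18, or -0.098 without old replicate 2. Eif4e, the protein that binds the cap itself, had 9.27, 9.36 and 9.13 in D4PM cells and 9.46 and 9.46 in D2PM cells, against 10.003 and 10.09 in old cells. All post-mortem arrays were lower, by -0.69 ± 0.12 (limma, adjusted p = 0.0014). Its other probe sets, at lower signal, gave -0.66 and -0.61. Of its relatives, Eif4e2 had 8.03, 8.32 and 7.72 in D4PM cells and 8.30 and 8.40 in D2PM cells, against 8.29 and 8.47 in old cells, with overlap (-0.19 ± 0.15, limma adjusted p = 0.375). Eif4e3 had 8.37, 8.30 and 8.45 in D4PM cells and 8.30 and 8.10 in D2PM cells, against 8.24 and 8.42 in old cells (-0.04 ± 0.12, limma adjusted p = 0.807). Eif4e1b had 5.46, 5.33 and 5.55 in D4PM cells and 5.21 and 5.12 in D2PM cells, against 5.33 on both old arrays (-0.02 ± 0.12, limma adjusted p = 0.903).

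The paralogues of the helicase eIF4A were called in opposite directions. Eif4a1 had 11.34, 11.21 and 11.15 in D4PM cells and 11.48 and 11.60 in D2PM cells, against 12.06 on both old arrays (-0.68 ± 0.11, limma adjusted p = 0.00151), and its other probe sets gave -0.57 and -0.55. Eif4a2 had 10.94, 10.93 and 10.92 in D4PM cells and 11.01 and 11.002 in D2PM cells, against 10.51 and 10.47 in old cells (0.47 ± 0.11, limma adjusted p = 0.00682). Both stayed past the threshold in the other scalings, and without old replicate 2 Eif4a2 had an adjusted p of 0.0627. Eif4g2, the gene of DAP5, a relative of the scaffold eIF4G that lacks the site for eIF4E, had 11.15, 10.997 and 11.10 in D4PM cells and 11.18 and 11.22 in D2PM cells, against 11.51 and 11.52 in old cells (-0.38 ± 0.11, limma adjusted p = 0.0245). The scaffold gene Eif4g3 had 8.29, 8.14 and 8.34 in D4PM cells and 8.37 and 8.22 in D2PM cells, against 8.49 and 8.72 in old cells. All post-mortem arrays were lower without passing the test (-0.33 ± 0.12, limma adjusted p = 0.0647). The helicase cofactor genes Eif4b and Eif4h were not called.

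Both measured genes of proteins that bind eIF4E and hold it from the scaffold were lower. Eif4ebp1, a target of mTOR, had 7.72, 7.95 and 7.84 in D4PM cells and 8.22 and 8.28 in D2PM cells, against 8.31 and 8.77 in old cells (-0.50 ± 0.14, limma adjusted p = 0.0215). The old arrays differed widely from each other here, and the difference was -0.26 (adjusted p = 0.269) without old replicate 2. Eif4enif1, which carries eIF4E into the nucleus and represses bound mRNAs, had 7.50, 7.07 and 7.35 in D4PM cells and 7.28 and 7.34 in D2PM cells, against 7.74 and 7.94 in old cells (-0.53 ± 0.14, limma adjusted p = 0.0132). Eif4e, Eif4ebp1 and Eif4enif1 thus lay on the same side. Eif4ebp2 was not analysed, and the probe set that Eif4ebp3 shares with other genes gave -0.22, with overlap, and was not tested.

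All 3 genes of subunit joining and release were lower, with a class median of -0.39. Eif5b, the GTPase that joins the large subunit, had 8.56, 8.37 and 8.21 in D4PM cells and 8.46 and 8.54 in D2PM cells, against 8.86 and 9.19 in old cells (-0.59 ± 0.14, limma adjusted p = 0.00811). Eif6, which keeps free large subunits apart from small ones, had 8.13, 8.28 and 8.21 in D4PM cells and 8.44 and 8.32 in D2PM cells, against 8.64 and 8.73 in old cells (-0.39 ± 0.11, limma adjusted p = 0.0227). Eif5, which triggers GTP hydrolysis by eIF2, was lower by a similar amount (-0.37, limma adjusted p = 0.0451). This passed narrowly and did not pass under 7 of 15 alternatives. A probe set that Eif5 shares with other genes gave -0.02. Eif5a, the hypusine-bearing factor that relieves stalled ribosomes, had 9.38, 9.46 and 9.28 in D4PM cells and 9.62 and 9.65 in D2PM cells, against 10.17 and 10.36 in old cells. Its bands did not overlap, its difference was -0.76 ± 0.12 (limma, adjusted p = 0.000832), and its dimmer probe set gave -0.59.

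The promoter windows of the lower factors that hold the E-box CACGTG are shown because 3 of the 4 genes that kept their call under every alternative, Eif4a1, Eif4e and Eif5a, are among them. The letters read the same on both strands. The E-box is the known binding sequence of MYC and related proteins. Capitals mark it, and positions count from the first base of the E-box to the annotated start at 0. They are -189 in Eif4a1, -64 and -228 in Eif4e, -178 in Eif5a and 22 in Eif3a. Eif5a holds a further E-box at another annotated start, which is not shown.
Eif4a1 (chr11:69672595-69672624, minus strand): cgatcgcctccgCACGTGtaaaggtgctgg
Eif4e, near site (chr3:138527192-138527221, plus strand): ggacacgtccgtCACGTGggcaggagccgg
Eif4e, far site (chr3:138527028-138527057, plus strand): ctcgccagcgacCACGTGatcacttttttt
Eif5a (chr11:69920791-69920820, minus strand): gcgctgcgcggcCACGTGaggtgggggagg
Eif3a (chr19:60790654-60790683, minus strand): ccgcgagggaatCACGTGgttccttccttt
CACGTG stood in the window of 11 of the 45 factors (24.4%), against 8.09% of 27025 genes and 11.8% of the 7862 tested. It stood in 4 of the 14 factors called lower (28.6%), in 7 of the 26 not called (26.9%) and in 0 of the 4 called higher. A match is a run of letters and no evidence of binding.

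**Figure D3:**
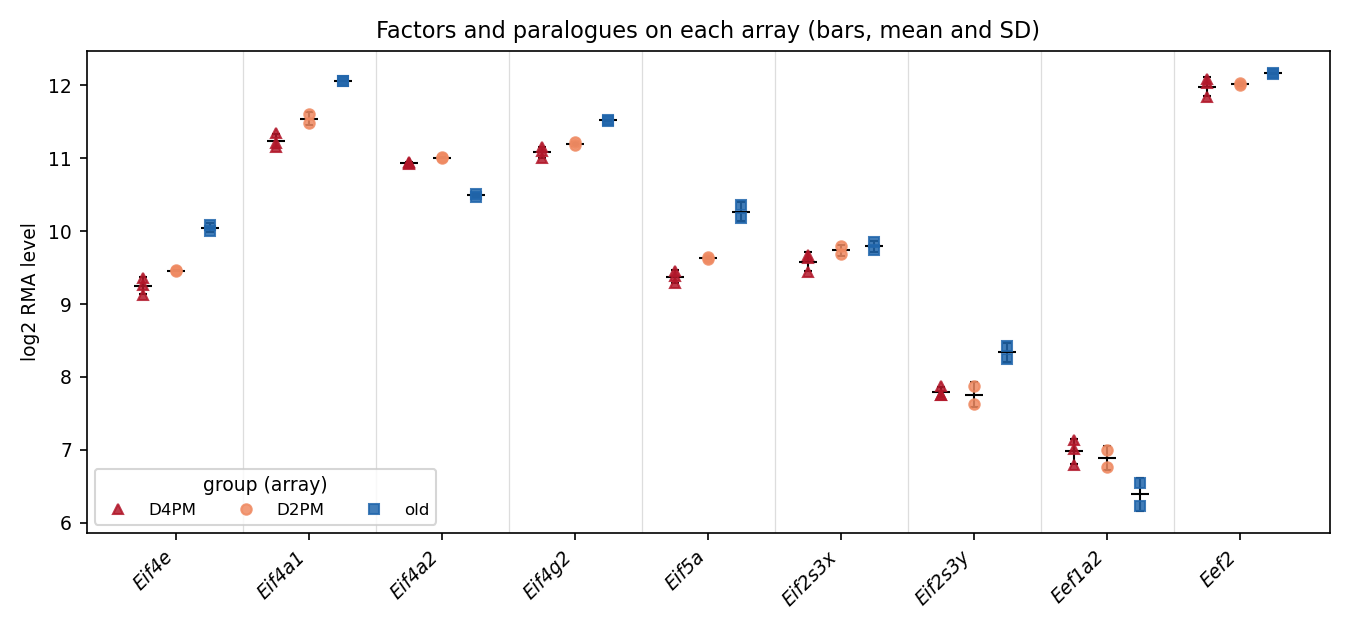
The log2 RMA level (vertical axis) of 9 factors on each array, with D4PM (triangles), D2PM (circles) and old (squares) side by side and bars for mean and SD; levels can be set against each other within a gene only. Eif4a1 lies below and Eif4a2 above its old level on every post-mortem array, and Eif2s3y stands further from its old arrays than Eif2s3x does.

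The elongation factors had 1 call among 4. Eef1a2, the form of the tRNA-delivering GTPase typical of muscle fibres and neurons, had 6.80, 7.01 and 7.13 in D4PM cells and 7.0045 and 6.77 in D2PM cells, against 6.55 and 6.23 in old cells. All post-mortem arrays were higher, by 0.55 ± 0.14 (limma, adjusted p = 0.0138). Of the 6 myofibre markers, Acta1 and Ckm, the actin and creatine kinase, were also higher. Acta1 had means of 10.60 in D4PM cells, 10.39 in D2PM cells and 8.62 in old cells, and Ckm had 8.68, 8.51 and 7.04. Myh4, Tnnt3 and Mylpf were higher too, and Myh1 was not called (0.07, limma adjusted p = 0.691). Whether Eef1a2 is tied to these markers was not tested. Eef2, which moves the ribosome by 1 codon, had 12.08, 11.83 and 12.03 in D4PM cells and 11.9997 and 12.03 in D2PM cells, against 12.17 and 12.16 in old cells. Its post-mortem arrays were all lower, by an amount that did not pass (-0.17 ± 0.12, limma adjusted p = 0.312). The exchange factor genes Eef1b2 and Eef1d had 0.04 and 0.13 and were not called.

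Of 5 enzymes that modify elongation factors, 1 was called. Eef1akmt2, a lysine methyltransferase of eEF1A, had 6.53, 6.42 and 6.63 in D4PM cells and 6.69 and 6.25 in D2PM cells, against 5.82 and 6.1025 in old cells (0.54 ± 0.15, limma adjusted p = 0.017). Another such enzyme, Eef1akmt1, had 7.21, 7.36 and 6.64 in D4PM cells and 7.75 and 7.07 in D2PM cells, against 6.61 and 6.69 in old cells. The difference was of like size, but 1 D4PM array fell within the old range (0.59 ± 0.21, limma adjusted p = 0.0554). Eef2k, the kinase that halts eEF2, had a difference of 0.09 and was not called.

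Genes matched by symbol that act elsewhere were kept apart. Eef1e1, a scaffold of the aminoacyl tRNA synthetase complex, had 7.22, 8.16 and 7.29 in D4PM cells and 8.11 and 7.83 in D2PM cells, against 8.29 and 8.74 in old cells. The D4PM arrays spread more widely than for other factors (SD 0.52), and the difference was -0.75 ± 0.23 (limma, adjusted p = 0.0324). This did not pass under 7 of 15 alternatives. Eif4a3, a helicase of the exon junction complex, had 9.14, 9.04 and 9.04 in D4PM cells and 9.14 and 9.14 in D2PM cells, against 9.29 and 9.42 in old cells (-0.25 ± 0.11, limma adjusted p = 0.122).

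Taken by day, D4PM minus old gave 4 factors higher and 19 lower, where 27.9% of all genes were called, 12.4% higher and 15.5% lower. D2PM minus old gave 2 higher and 8 lower, where 19.4% of all genes were called, 10.3% higher and 9.11% lower. These comparisons share the 2 old arrays. The median log2 difference of the factors was -0.25 at D4PM and -0.14 at D2PM, and at D2PM it was -0.063 without old replicate 2. The share of factors called was thus 41.1% at D4PM, and at D2PM it was 17.9%, near the share of all genes. Among genes with a mean log2 level of 7 to 14, 37.7% were called at D4PM (22.8% lower) and 27.5% at D2PM (13.4% lower). The 42 factors in that range had 17 lower and 2 higher at D4PM, and 8 lower and 2 higher at D2PM. Without old replicate 2, 4 factors were called at D4PM (7.14%), where 9.16% of all genes were. At D2PM none was called without that array or without D2PM replicate 1, where 3.48% and 3.25% of all genes were, and 1 was called without D2PM replicate 2, where 6.17% were.

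Eif3b had differences from old of -1.10 at D4PM and -0.70 at D2PM. Eif5a had -0.89 and -0.63, Eif4a1 -0.83 and -0.52, and Eif4e -0.79 and -0.59 on the same days, all 4 called on both. Eif4a2 had 0.44 at D4PM and 0.51 at D2PM, and Eif2a had 0.34 and 0.45, also called on both. At D4PM Eif2a passed narrowly (limma, adjusted p = 0.0474) and did not pass under 11 of 15 alternatives. At D2PM it did not pass under 5 of 15. The other factors called on both days were Eif2s3y, Eif3a, Eif4enif1 and Eif5b. The 13 factors called at D4PM and not at D2PM included Eif4ebp1, with -0.70 and -0.29, and Eif1ad, with -0.68 and -0.25.

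**Figure D4:**
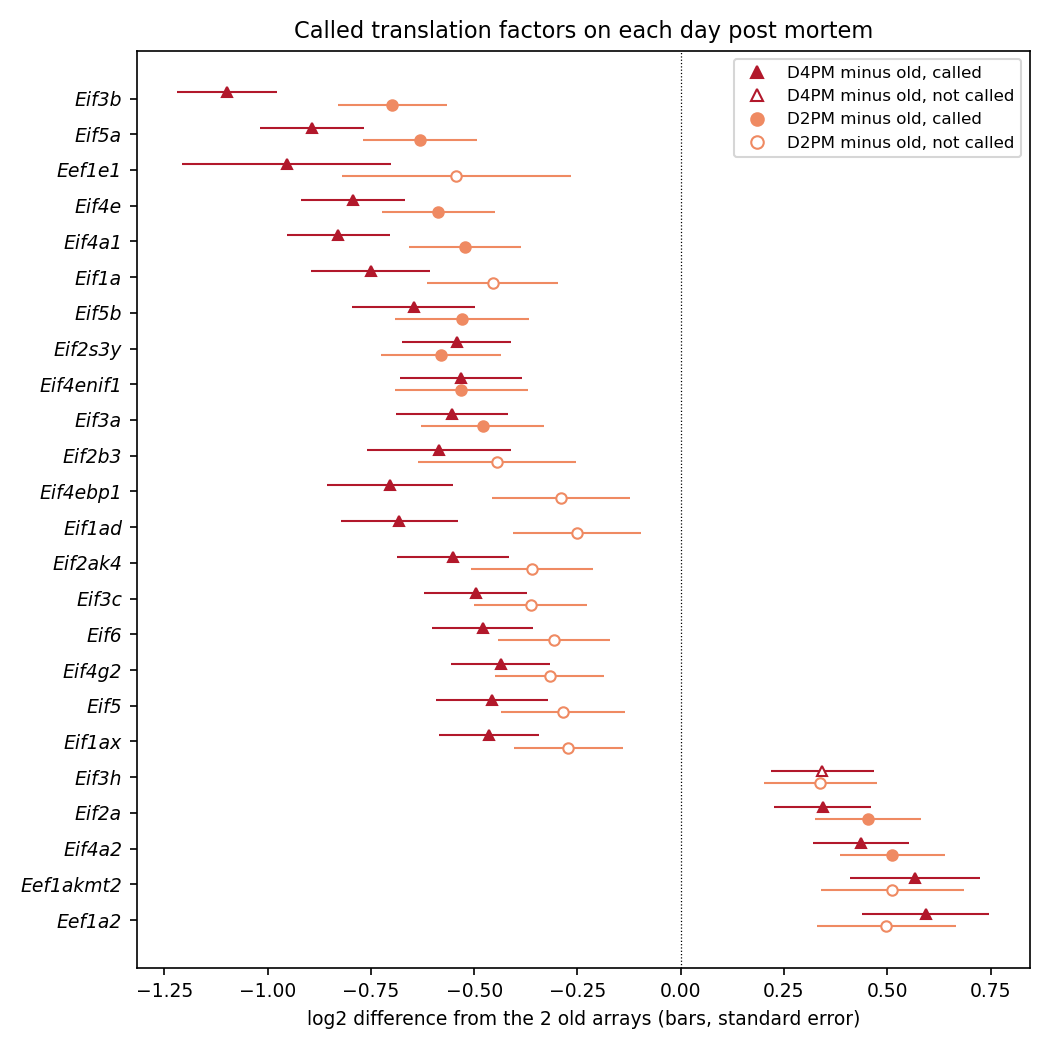
The log2 difference from old (horizontal axis) at D4PM (triangles) and D2PM (circles) for the 24 factors called in any comparison with old, with standard errors; filled symbols passed adjusted p under 0.05. Most lower factors have the triangle to the left of the circle, and the bars overlap in many of them.

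Between the 2 days, no factor was called (limma), where 0.191% of all genes were. At an unadjusted p under 0.05 there were 6 of 56 factors, against 7.76% of all genes. The smallest adjusted p was 0.442, for Eif3b, with a difference of -0.40 ± 0.12 and D4PM arrays all below the D2PM arrays. The D4PM mean was below the D2PM mean in 42 of 56 factors, against 56.6% of all genes, and the median difference was -0.14 over the factors and -0.03 over all genes. Among those with a mean log2 level of 7 to 14 it was -0.16 over 42 factors and -0.08 over all genes, and without D2PM replicate 1 it was -0.081 over all factors. All D4PM arrays lay below all D2PM arrays in 16 factors, where 15.6% of all genes did so, and above them in 2, which makes 18 factors without overlap, where 25.3% of all genes had none. The factors called at D4PM alone are therefore not shown to differ between the days.

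Other genes of translation control, which the symbol rule does not match, were taken from a list. It held regulators of eIF4E, mTOR and eIF2, genes of termination, and others such as Abce1 and Metap1. Of 47 tested, 15 were lower and 3 higher post mortem, with a median log2 difference of -0.22. That is 38.3% called, against 29.0% of all genes tested, 14.7% lower and 14.4% higher, without matching for brightness. Unlike those of the factors, these calls were not followed under the alternatives. The higher genes were Ddit4, Ppp1r15a and Sesn2. Ddit4, an inhibitor of mTOR induced by stress, had 7.94, 7.75 and 7.73 in D4PM cells and 7.90 and 7.75 in D2PM cells, against 6.50 and 6.74 in old cells (1.20 ± 0.13, limma adjusted p = 9.13e-05). Ppp1r15a, the GADD34 subunit that directs a phosphatase to eIF2 alpha, had 11.88, 11.81 and 11.74 in D4PM cells and 11.13 and 11.33 in D2PM cells, against 10.61 and 10.14 in old cells (1.15 ± 0.14, limma adjusted p = 0.000258). Its D4PM arrays all lay above its D2PM arrays.

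Among the lower genes of this list, Abce1, the ATPase that splits ribosomes for reuse, had 8.61, 8.86 and 8.36 in D4PM cells and 9.04 and 8.82 in D2PM cells, against 9.54 and 9.74 in old cells (-0.87 ± 0.15, limma adjusted p = 0.00164). Larp4, which binds the poly(A) tail, was lower by -0.81, and Metap1, which removes the first methionine, by -0.64. Gspt1, the termination factor eRF3a, had 8.83, 8.79 and 8.82 in D4PM cells and 9.08 and 8.94 in D2PM cells, against 9.41 and 9.61 in old cells. Pabpc1, the poly(A)-binding protein that meets eIF4G, had -0.49 (limma, adjusted p = 0.00697), and Abcf1, an ATPase that acts with eIF2, had -0.50 (limma, adjusted p = 0.00803).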

How the data were processed

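RNA of FACS-sorted satellite cells was hybridised to GeneChip Mouse Gene 1.0 ST arrays. The deposited values are log2 levels that the authors obtained by RMA (background correction, quantile normalisation and probe set summary), and according to the methods they removed probes that were not expressed or invariant, so the shares called are shares of genes that vary. The submitters' processing notes name RMA and limma. The genome build is not given in the sources used here.

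Of 18675 probe sets, 14480 were annotated to 1 gene, 774 to several and 3421 to none listed. Of the 14480, 14425 matched the RefSeq table of GRCm38.p6 by Entrez identifier. Where a gene had several probe sets, the brightest was used. Genes whose mean log2 level was under 5.12, the 25th percentile, were left out, which left 9944 genes, to which limma 3.58.1 was applied in R 4.3.3 (a mean for each of the 3 groups over 7 arrays, contrasts, empirical Bayes without trend, Benjamini-Hochberg over all genes tested, called under 0.05). The fit was tested on simulated data. Errors are standard errors of the fit unless SD is written, and the small number of arrays limits precision. Whether the arrays within a group stand for different animals is not stated. The p-values therefore reflect how far these arrays spread, and that spread may be technical.

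Values on every array are given for the 2 factors of each class with the largest moderated statistic in the mean of D2PM and D4PM minus old, for paralogue groups (Eif1b, Eif2s3x and Eif2s3y, the 4 kinases, Eif4e, Eif4e2 and Eif4e3, and Eif4g2 and Eif4g3), and, added after their values were seen, for Eif4a2, Eif4e1b, Eif3c and Eif3h. From the list of other translation control genes, the 8 called genes with the largest statistic are named, and Sesn2 was added. The factors, classes and lists were chosen with earlier results of these data known. The alternatives were other scalings, filters, probe set rules and fits, a replicate block and leaving out each array.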

Additional observations from a re-analysis of the deposited data

How the results depend on the processing

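Across 44 counts and medians and 16 alternatives, 633 of 671 values stayed within a tolerance of the reported ones and 38 did not. The tolerance was 1.5 times for a count and, for a median, 1 SD of that median between replicate arrays, so that a small median may change several-fold within it. The count of factors called, leaving out 1 array at a time, was 4 to 23 for D4PM minus old, 0 to 11 for D2PM minus old, 4 to 23 for the mean of both days minus old and 0 for D4PM minus D2PM. Under the other alternatives it was 21 to 25, 9 to 13, 23 to 25 and 0. Eif3b, Eif4a1, Eif4e and Eif5a were called under every alternative in D4PM minus old and in the mean of both days minus old, no factor was in D2PM minus old, and no called factor changed sign. With median centring the median difference at D4PM was -0.32 over all factors and 0.042 over the eIF3 subunits, and the median of all genes moved to -0.06. With the filter at the 50th percentile, fewer factors were tested, and the kinases had medians of 0.043 at D4PM, 0.19 at D2PM and 0.12 over both days, the elongation regulators had 0.14, 0.28 and 0.21 and -0.14 between the days, and all factors had -0.075 at D2PM. Leaving out 1 array at a time, the median over all factors ranged from -0.34 to -0.17 at D4PM, from -0.19 to -0.063 at D2PM and from -0.27 to -0.087 over both days. That of the eIF3 subunits ranged from 0.043 to 0.15 at D4PM, from 0.092 to 0.17 at D2PM and from -0.16 to -0.086 between the days. That of the elongation factors ranged from -0.042 to 0.24 at D4PM, from -0.050 to 0.25 at D2PM and from -0.046 to 0.24 over both days, below 0 only without old replicate 2. That of the elongation regulators ranged from 0.12 to 0.27 at D4PM, from -0.14 to 0.093 at D2PM, from 0.027 to 0.18 over both days and from 0.00 to 0.13 between the days. That of start codon selection ranged from -0.35 to -0.16 between the days. The cause was not tested. Arrays with the same replicate number did not deviate together (correlations -0.08 to 0.05). With a replicate block, 21, 11, 24 and 0 factors were called at D4PM minus old, D2PM minus old, the mean of both days minus old and D4PM minus D2PM.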
